A study of Mus musculus with 2 samples.

Results

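Replication-dependent histone genes encode the H1 linker histone and the H2A, H2B, H3 and H4 core histones that package newly copied DNA, and they were followed here through the cells of the inflamed mouse temporomandibular joint (TMJ). The members were all gene symbols of the deposited matrices that begin with Hist1h, Hist2h, Hist3h or Hist4h, which gave 67 of 32285 genes. Of these, 6 encode H1, 18 H2A, 18 H2B, 12 H3 and 13 H4. They lie in clusters, with 54 on chromosome 13, 10 on chromosome 3, 2 on chromosome 11 and 1 on chromosome 6.

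The cells came from the TMJ of female C57BL/6 mice aged 8 to 10 weeks, and both groups had received complete Freund's adjuvant (CFA), an oil with killed mycobacteria that causes arthritis, by injection into the joint. The WT CFA group was wild type and the Prox1 mutant CFA group was heterozygous (Prox1+/-) for Prox1, the transcription factor that specifies lymphatic endothelium. There was 1 single-cell library per group, the number of animals pooled in each is not given in the sources used here, and the comparison asked how the joint's cells differ when lymphatic vessels are deficient. With 1 library per group no test between groups was possible. Values are UMIs, molecules counted once each, summed over the cells of a type and expressed as counts per 1000000 UMIs of those cells (CPM), with exact 95% intervals that cover counting error only. A gene is called higher or lower when it differed by at least 2-fold, among genes with at least 20 UMIs in the cells compared.

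Histone genes of this class are transcribed when a cell copies its DNA, and their mRNAs are unusual in ending at a short stem-loop in place of a poly(A) tail. The stem-loop binding protein Slbp holds this structure during processing, transport and translation, and the mRNAs are degraded when DNA synthesis stops. A minority of members also make polyadenylated transcripts in cells that do not divide. The libraries were primed on poly(A), so a count gives the molecules that were captured and not the whole histone mRNA of a cell, and counts are compared for the same gene between cells rather than as amounts of different genes. Erythroblasts, the haemoglobin-filled precursors of red cells, and the progenitors of neutrophils and B cells divide fast in bone marrow. Top2a, which untangles replicated DNA, and Mki67, which coats mitotic chromosomes, were used as markers of dividing cells.

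The stem-loop was looked for in the GENCODE transcript models on GRCm38, as a 6-base stem, a 4-base loop and the matching stem, and it was found in 46 of the 67 members. Where the models end matters because a poly(A) primer can only catch a transcript with adenines. In 23 members the model ended within 100 bases of the stem-loop, in 23 it ran on further, and in 21 none was found. Some of these 21 models were short, such as 381 bases for Hist1h2br and 312 for Hist1h4k, and may stop before the mRNA does. A model without a stem-loop therefore does not show that the mRNA lacks one. The sequences below run 5′ to 3′ with the stem-loop in capitals, and they were chosen because the later results turn on these genes. They give only a few bases on each side of it, and only those of Hist1h2ap and Hist1h4m reach the end of the model.
Hist1h2ap: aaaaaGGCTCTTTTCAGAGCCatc
Hist1h2ao: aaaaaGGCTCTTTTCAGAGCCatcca
Hist1h2ae: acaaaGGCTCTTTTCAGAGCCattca
Hist2h2aa1: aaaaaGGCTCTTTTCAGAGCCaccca
Hist3h2a: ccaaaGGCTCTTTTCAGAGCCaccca
Hist1h1c: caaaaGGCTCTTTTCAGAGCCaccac
Hist1h3c: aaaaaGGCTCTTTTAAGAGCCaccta
Hist1h4d: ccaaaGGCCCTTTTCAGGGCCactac
Hist1h4m: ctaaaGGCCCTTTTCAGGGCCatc
Hist1h4n: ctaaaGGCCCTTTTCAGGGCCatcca
Hist4h4: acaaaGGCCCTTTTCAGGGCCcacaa
The form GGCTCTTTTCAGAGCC stood in 26 members of the H1, H2A, H2B and H3 classes and in none of H4. All 12 H4 members with a stem-loop had another stem, and 7 of them carried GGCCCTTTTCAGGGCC. The model of Hist1h2ap (chromosome 13, 21833026 to 21833507, minus strand) ended 3 bases after the stem-loop, and that of Hist1h2ae (chromosome 13, 23570517 to 23571220, minus strand) ran on for 151. Hist1h1c (chromosome 13, 23738808 to 23740367, plus strand) ran on for 840 bases, Hist1h4d (chromosome 13, 23581598 to 23582735, plus strand) for 770 and Hist3h2a (chromosome 11, 58954685 to 58956830, plus strand) for 1643. No stem-loop was found in the models of Hist1h1b (chromosome 13, 21779883 to 21780625, minus strand) and Hist1h2bc (chromosome 13, 23684199 to 23692908, plus strand). A poly(A) signal was found in 14 of the 67 models.

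The promoters of the members shared short motifs. RefSeq promoter windows on GRCm38.p6, from 250 bases before the start site to 50 after it, were matched for 61 members. CCAAT on either strand, the letters bound by the factor NF-Y, stood in 52 of them (85.2%) against 37.4% of all 32851 promoters. It was in all 5 H1, 18 H2A, 16 H2B and 10 H3 promoters and in 3 of 12 H4 promoters (25.0%). TATAAA on the plus strand of the gene was in 29 members (47.5%) against 8.3% of all promoters. The promoters of the H1 gene with most UMIs, Hist1h1b (chr13:21780576-21780875, minus strand), and of the H4 gene with most UMIs, Hist1h4d (chr13:23581318-23581617, plus strand), show both patterns, with CCAAT, its reverse complement ATTGG and TATAAA in capitals.
Hist1h1b: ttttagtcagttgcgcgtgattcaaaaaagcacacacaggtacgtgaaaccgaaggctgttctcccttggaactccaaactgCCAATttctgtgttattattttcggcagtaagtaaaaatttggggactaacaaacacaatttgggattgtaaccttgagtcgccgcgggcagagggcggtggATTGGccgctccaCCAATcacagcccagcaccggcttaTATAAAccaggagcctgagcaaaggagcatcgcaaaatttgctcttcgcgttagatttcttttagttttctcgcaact
Hist1h4d: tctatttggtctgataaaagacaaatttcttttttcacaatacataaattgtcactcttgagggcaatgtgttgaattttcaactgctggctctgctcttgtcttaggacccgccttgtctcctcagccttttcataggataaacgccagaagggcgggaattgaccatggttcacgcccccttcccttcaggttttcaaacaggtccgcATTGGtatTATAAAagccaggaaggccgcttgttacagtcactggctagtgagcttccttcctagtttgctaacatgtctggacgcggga
Hist1h1b held 3 of the CCAAT motifs and Hist1h4d held 1, and each held TATAAA.

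After cells with fewer than 500 genes or with 10% or more mitochondrial UMIs were set aside, 4352 WT and 5757 Prox1 mutant cells remained, with 48366846 and 54330221 UMIs and medians of 6997 and 4848 UMIs per cell. The libraries shared 10 barcodes, 4 of them among the kept cells. Cell types were named from marker genes in clusters that had been made without the members, Top2a, Mki67 and lists of S phase and G2/M genes. Other cell-cycle genes were not removed. The 4 erythroblast-like clusters, numbered 6, 9, 32 and 34, held 308 WT and 651 mutant cells and were raised in Slc4a1, Alas2, Epb42 and Trim10, genes of the red cell membrane, haem synthesis and erythroid regulation. Haemoglobin made up 449700 CPM of the WT and 441200 CPM of the mutant erythroblast-like cells. In all other cells it was at 3125 CPM in the WT library and at 39000 CPM in the mutant library, so the barcodes of other cells held more erythroid RNA in the mutant library. Clusters left unnamed held 44744 of the 140715 haemoglobin UMIs of these other cells in WT and 1156430 of 1862907 in mutant. Haemoglobin levels are given beside the results between libraries, and the part of erythroid RNA in them was not tested.

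The members summed to 126392 UMIs, 33117 in the WT library and 93275 in the mutant library. At least 1 UMI was found for 65 members, at least 10 for 62 and at least 1000 for 25, and Hist1h2aa and Hist1h2ba were at 0 in both libraries. By class, H2A took 34.3% of the UMIs, H1 30.0%, H4 14.1%, H2B 13.6% and H3 8.07%. By place, the genes on chromosome 13 took 93.5%, those on chromosome 3 4.81%, those on chromosome 11 1.33% and the gene on chromosome 6 0.389%. Hist1h1b, a linker histone, gave 17.3% of all member UMIs (6298 WT, 15544 mutant) and Hist1h2ap, an H2A gene, gave 15.3% (1999 WT, 17330 mutant). Adding Hist1h2ae, Hist1h4d and Hist1h1c brought the sum to 52.3%, and the 24 members with most UMIs held 86.6%. At the other end Hist1h2ao had 6 WT and 39 mutant UMIs, Hist1h1t, the testis H1, had 1 and 6, and Hist1h2bq and Hist2h2aa2 had 0 and 2. Each of the last pair shared 100% of the 50-base stretches of its transcript model with another gene, so reads within that model also match the copy. The closest copies, Hist1h2br and Hist2h2aa1, had 478 and 1508 UMIs over both libraries.

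Summed histone levels were highest in erythroblast-like cells in both libraries. In erythroblast-like cells they reached 4925 CPM (95% interval 4850 to 5001) for the WT library and 8571 CPM (8500 to 8642) for the mutant library. All other cells together were at 370.5 and 774.1 CPM, so that the log2 ratio of erythroblast-like over other cells was 3.73 (3.70 to 3.76) for WT cells and 3.47 (3.45 to 3.49) for mutant cells. The other cells include cluster 23, which also had erythroid markers. It held 939 of their 16682 histone UMIs in WT and 12317 of 36970 in mutant. Early B lineage-like cells, which rearrange their receptor genes, had the second level among named types, cluster 23 being taken up below, with 2398 CPM (2287 to 2513) over 136 cells of the WT library and 2856 CPM (2714 to 3003) over 78 cells of the mutant library. Granulocyte-monocyte progenitor-like cells were at 1346 and 1880 CPM in 142 and 182 cells. Immature neutrophil-like cells, named from granule protein genes such as Camp and Ngp, were at 1019 and 1468 CPM in 147 and 353 cells. They join cluster 19 with cluster 13, which held 46 WT and 226 mutant cells. Cluster 13 was led by Ccl8 and was also raised in mature neutrophil markers such as Retnlg and Cxcr2 and in macrophage genes such as C1qa and Mrc1. The name is therefore loose there. Mast cell and basophil-like cells were at 1999 CPM (1758 to 2263) over 11 WT cells and 1872 CPM (1595 to 2184) over 17 mutant cells, and these intervals overlap. Mature neutrophil-like cells, which have left the cycle, were at 172.1 and 335.4 CPM.

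Stromal and vascular types sat lower. Mesenchymal cells were at 197.9 and 187.1 CPM, smooth muscle at 181.7 and 150.2, endothelial cells at 197.9 and 298.6, and Schwann cells at 287.4 and 287.1 CPM in WT and mutant. Macrophage-like cells were lowest in both libraries, at 117.1 CPM (106.4 to 128.6) over 282 WT cells and 125.1 CPM (116.4 to 134.3) over 382 mutant cells. Pericyte-like cells were at 408.0 CPM (356.7 to 464.5) in 63 WT cells, 3 of them positive for Top2a and Mki67, and at 181.2 CPM (139.8 to 230.9) in 35 mutant cells with 0 positive. Osteoblast and osteocyte-like cells also differed between the libraries, with 189.0 CPM in 30 WT cells and 755.1 CPM in 22 mutant cells, and 2 of the 22 mutant cells were positive for Top2a and Mki67. Mki67 was at 1886 and 2585 CPM in WT and mutant erythroblast-like cells and Top2a at 645.2 and 950.6 CPM. In early B lineage-like cells Top2a was at 652.7 and 826.7 CPM, near the erythroblast-like level in WT with haemoglobin in the total. Haemoglobin took 449700 CPM of WT erythroblast-like and 362.0 CPM of WT early B lineage-like cells, so this nearness rests on the total used.

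**Figure D1:**
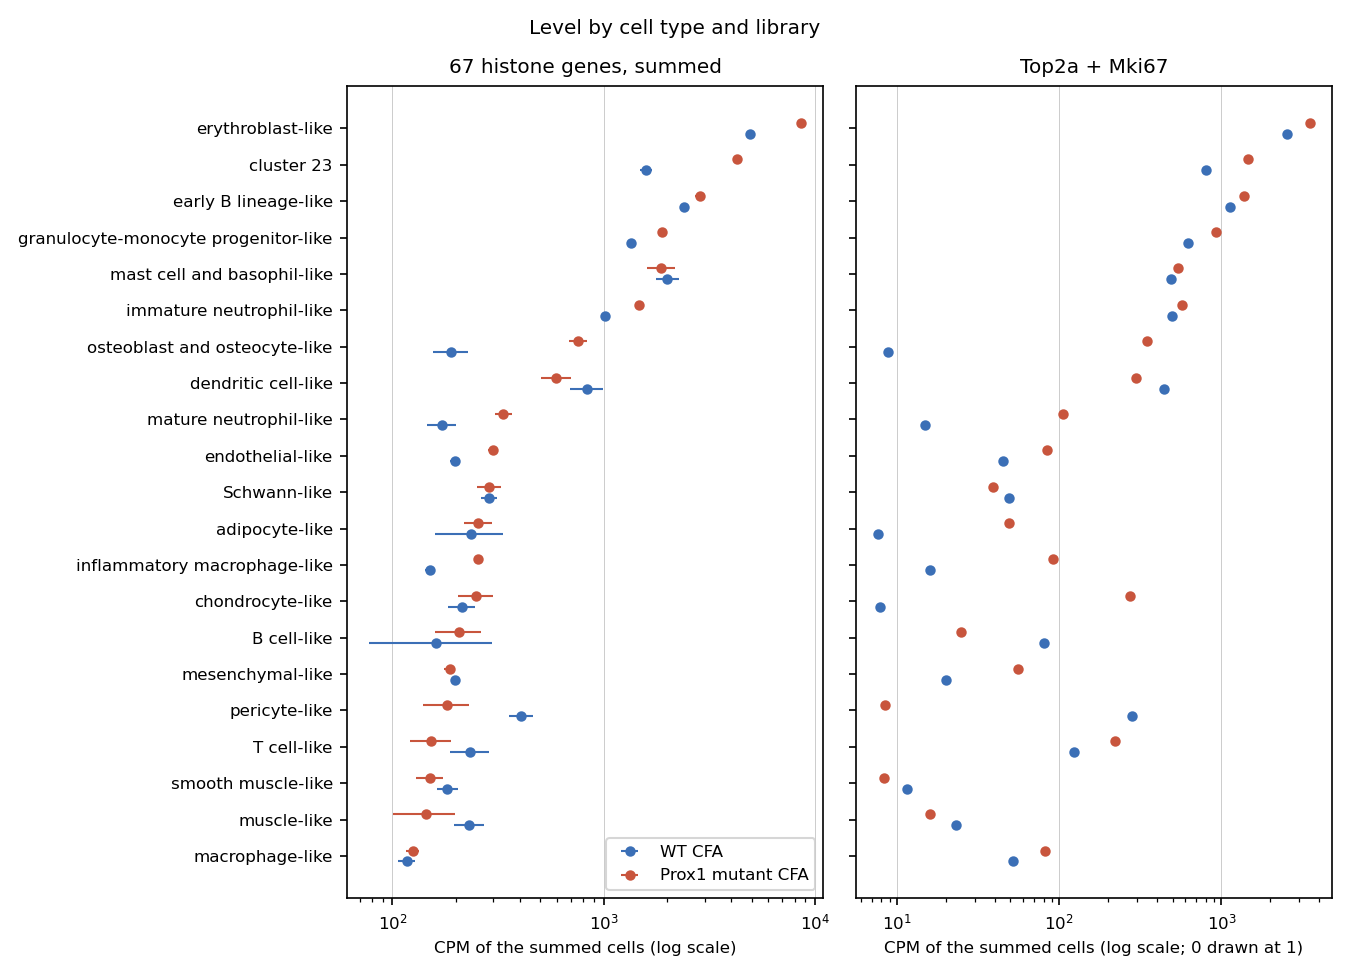
Summed level of the 67 histone genes (left) and of Top2a plus Mki67 (right), in CPM on log axes, for each marker-named type in the WT CFA library (blue) and the Prox1 mutant CFA library (red). Bars are exact 95% Poisson intervals of the histone sum. Erythroblast-like cells lie highest at 4925 and 8571 CPM and macrophage-like cells lowest at 117.1 and 125.1 CPM.

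Cluster 23 needed care. It expressed genes of glandular epithelium and also 6 erythroid markers, so it is given by number, and its histone level was 1579 CPM in 29 WT cells and 4273 CPM in 120 mutant cells. The cells of cluster 23 with UMIs of at least 3 of 12 erythroid markers numbered 13 in WT and 78 in mutant, and they held 95.1% and 97.9% of its histone UMIs. Those cells were at 2401 and 6180 CPM and the rest of the cluster at 206 and 275 CPM. In the mutant library 98 cells of cluster 13, an immature neutrophil-like cluster, also had at least 3 erythroid markers, and they were at 1200 CPM against 651 CPM in the others.

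Nearly every member was higher in erythroblast-like cells than in all other cells. In the WT library 58 of 60 members tested were at least 2-fold higher, against 8.36% of all genes, and in the mutant library 60 of 62 were, against 8.32%. The members' median log2 ratio was 4.57 in WT and 3.80 in mutant, where the median over all genes was -1.499 and -1.85. Medians by class in WT ran from 3.86 for H1 through 4.02 for H4, 4.21 for H2A and 4.91 for H2B to 5.001 for H3. The members below 2-fold were Hist1h2bc and Hist2h3c2 in WT, and Hist3h2a and Hist2h3c2 in the mutant library, named because they were the exceptions. Hist2h3c2 had only 5 UMIs in WT and 13 in mutant erythroblast-like cells. Hist1h2bc was at 97.1 CPM in WT erythroblast-like cells and 58.1 in the other cells, a log2 ratio of 0.74 (0.57 to 0.91). Hist3h2a was at 16.4 CPM in mutant erythroblast-like cells and 9.46 in the others, a log2 ratio of 0.80 (0.48 to 1.10).

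The linker histones bind DNA between nucleosomes and 5 of the 6 were among the 24 members with most UMIs. Hist1h1b was at 976.9 CPM in WT and 1424 CPM in mutant erythroblast-like cells against 67.5 and 129.5 CPM elsewhere, with log2 ratios of 3.86 and 3.46. Hist1h1c was at 178.9 and 242 CPM against 38.0 and 39.7 CPM, with lower ratios of 2.23 and 2.61. Hist1h1e had log2 ratios of 3.11 and 3.00, Hist1h1a of 4.84 and 3.75, and Hist1h1d of 4.47 and 3.83. Hist1h1c was therefore the H1 gene that was nearest between erythroblast-like and other cells in both libraries.

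H2A and H2B pair in the outer dimers of the nucleosome. Hist1h2ap was at 313.8 CPM in WT and 1470 CPM in mutant erythroblast-like cells, and at 21.1 and 160.6 CPM in the others, with log2 ratios of 3.89 and 3.19. Hist1h2ae was at 550.5 and 720.9 CPM, with log2 ratios of 4.48 and 3.85. Hist1h2ab had log2 ratios of 4.83 and 4.08, Hist1h2an of 4.64 and 3.57, Hist2h2ac of 3.85 and 3.46, and Hist2h2aa1 of 3.72 and 3.61. Among H2B genes Hist1h2bn had ratios of 6.14 and 4.27, Hist1h2bb of 5.24 and 4.35, Hist2h2bb of 5.08 and 4.18, Hist1h2bj of 5.03 and 3.83, and Hist1h2be of 3.37 and 3.24. Hist1h2bc stood far below these at 0.74 and 1.55.

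H3 and H4 form the central tetramer of the nucleosome. Hist1h3c was at 224.2 CPM in WT and 292.4 CPM in mutant erythroblast-like cells against 6.57 and 14.7 CPM elsewhere, with log2 ratios of 5.09 and 4.31. Hist1h3e had ratios of 4.25 and 3.55. Hist1h4d was at 369.2 and 646 CPM against 23.4 and 51.8 CPM, with ratios of 3.98 and 3.64. The ratios of Hist1h4c were 4.05 and 3.89, of Hist1h4h 3.91 and 3.82, and of Hist1h4i 3.51 and 2.95.

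**Figure D2:**
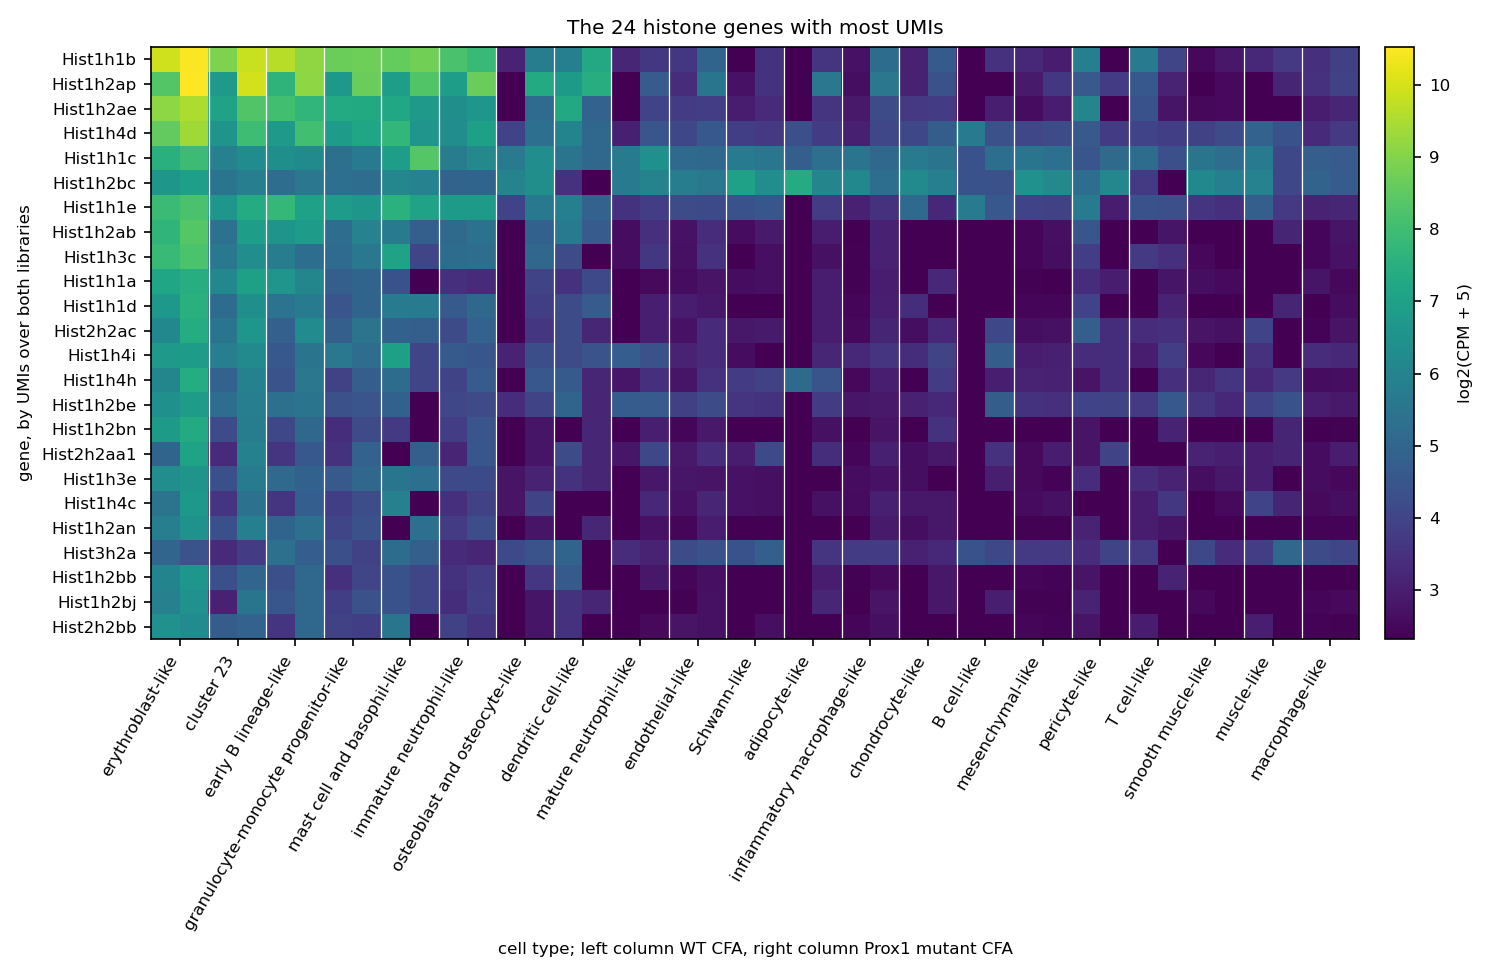
Level of the 24 members with most UMIs (rows) as log2(CPM + 5) in each cell type (columns, WT CFA left and Prox1 mutant CFA right within a type). Most rows are bright in erythroblast-like, cluster 23, progenitor, immature neutrophil, early B lineage and mast cell and basophil-like columns, and darker elsewhere. Hist1h1c and Hist1h2bc remain visible in stromal and macrophage columns.

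Within erythroblast-like cells the members split by Top2a and Mki67. Cells with at least 2 UMIs of the pair are called positive and cells with none negative. The positive share was 67.2% in WT and 66.8% in mutant erythroblast-like cells, 43.7% and 36.8% in granulocyte-monocyte progenitor-like cells, 41.5% and 36.3% in immature neutrophil-like cells, and 23.5% and 21.8% in early B lineage-like cells. In WT erythroblast-like cells the 207 positive cells were at 6376 CPM and the 63 negative cells at 279 CPM, a log2 ratio of 4.52 (4.27 to 4.77). In the mutant library the 435 positive cells were at 11270 CPM and the 131 negative cells at 389 CPM, a log2 ratio of 4.86. Positive cells also had more UMIs, with medians of 10607 against 8211 in WT and 10619 against 7906 in the mutant library. The split was mostly that of cluster 6, whose 125 WT and 293 mutant cells were all positive. Cluster 6 held 15780 of the 16172 histone UMIs of positive cells in WT and 54703 of 55664 in mutant. Positive and negative cells of the other erythroblast-like clusters were not compared on their own.

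Member by member, 49 of 52 tested in WT were at least 2-fold higher in positive cells, where 69.2% of all genes were, and 59 of 60 in the mutant library, where 66.9% were. The high share over all genes went with haemoglobin, which took 370400 CPM of positive against 709700 CPM of negative WT cells and 359000 against 694400 CPM in the mutant library. With haemoglobin left out of the total, 41 WT members and 56 mutant members were at least 2-fold higher beside 39.7% and 42.8% of all genes. The members' median log2 ratio was then 1.95 in WT and 3.29 in mutant, against 0.62 and 0.70 over all genes, and before it 3.07 and 4.36 against 1.74 and 1.77.

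Over both libraries together, 642 positive and 194 negative cells, the members' median log2 ratio was 4.35 beside 1.74 for 9255 genes. The members with a UMI in negative cells all lay above 1.74. The value of 4.35 is that of Hist1h2br, with 315 UMIs against 0, so it is a bound set by a floor of 3 UMIs. Hist1h3c had the highest ratio, with 2664 UMIs in positive and 2 in negative cells (356 against 1.38 CPM, log2 8.01, 6.16 to 11.06). Hist1h4h followed with 1292 against 1 UMI (7.97, 5.49 to 13.27) and Hist1h2ap with 10686 against 9 (7.85, 6.92 to 8.98). Next were Hist2h2ac with 1283 against 2 (6.96, 5.10 to 10.01) and Hist1h2af with 537 against 1 (6.70, 4.22 to 12.01). The intervals of these genes overlap, so their order is not settled. At the low end stood Hist1h1c with 2007 against 111 UMIs (1.81, 1.53 to 2.10), Hist1h2bc with 997 against 43 (2.17, 1.73 to 2.65) and Hist1h2ao with 25 against 1 (2.28, -0.33 to 7.64), the last too few to place. Hist2h3c1 and Hist2h2ab had 43 and 23 UMIs against 0. Against a floor of 3 UMIs their log2 ratios were at least 1.48 and at least 0.57, and these bounds give them no rank. Hist1h1c was at 269 CPM in positive and 76.6 CPM in negative cells, and had the most UMIs of any member in negative cells.

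**Figure D3:**
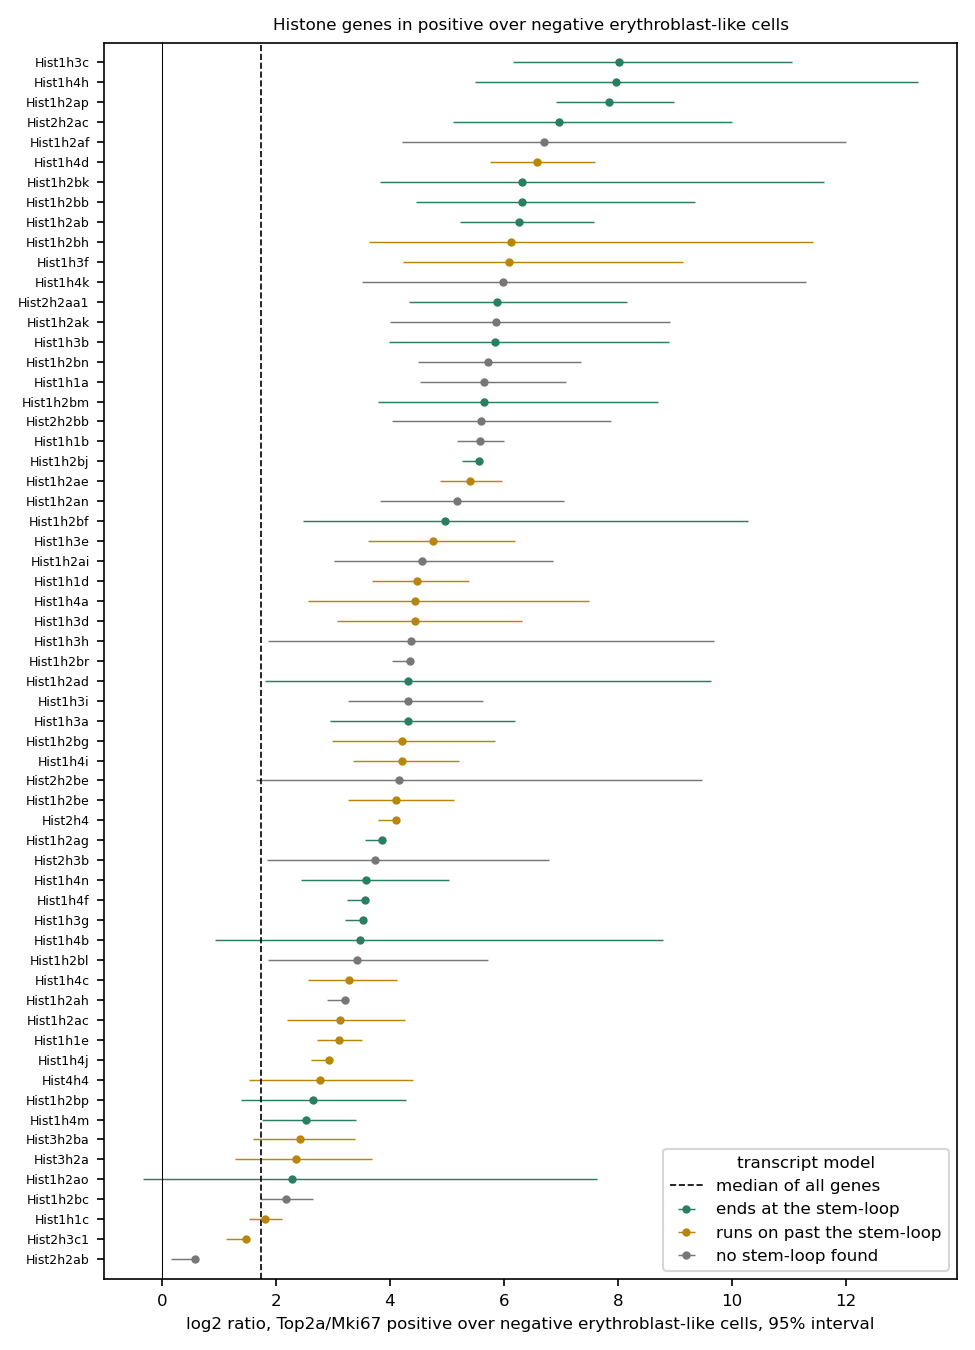
Log2 ratio of each tested member in Top2a or Mki67 positive over negative erythroblast-like cells of both libraries, with its 95% interval, coloured by how the transcript model ends. Members with no UMI in negative cells are drawn at their lower bound from a floor of 3 UMIs, and all points but the bounds of Hist2h3c1 and Hist2h2ab lie to the right of the dashed median of all genes at 1.74.

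The same split gave the same direction in the other dividing types. In granulocyte-monocyte progenitor-like cells positive against negative cells were at 2085 against 153 CPM in WT and 2975 against 176 CPM in mutant. Of the members tested there, 22 of 24 in WT and 32 of 33 in mutant were at least 2-fold higher, against 17.2% and 14.5% of all genes. In immature neutrophil-like cells the levels were 1772 against 123 CPM and 2521 against 169 CPM. There 19 of 20 and 35 of 36 members were higher, against 12.7% of all genes in WT and 12.7% in mutant. In early B lineage-like cells the levels were 4649 against 349 CPM and 5479 against 296 CPM, with 13 of 14 WT and 14 of 14 mutant members higher against 18.1% and 20.1% of all genes. The remaining WT member was Hist3h2a, with 3 UMIs in positive and 22 in negative cells and a log2 ratio of -2.86. Positive cells were deeper than negative cells in each of these types, for example with medians of 21734.5 against 11391 UMIs in WT granulocyte-monocyte progenitor-like cells.

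Histone UMIs were concentrated in few cells. The 5% of kept cells with most histone UMIs, 218 in WT and 288 in mutant, held 77.2% and 82.4% of them. Within early B lineage-like cells the top 5%, 7 WT and 4 mutant cells, held 52.5% and 65.8%. Within granulocyte-monocyte progenitor-like cells 8 and 10 cells held 38.9% and 55.1%. For immature neutrophil-like cells 8 and 18 cells held 44.8% and 56.3%, and for erythroblast-like cells 16 and 33 cells held 30.5% and 28.3%. Positive erythroblast-like cells had a median of 15 histone UMIs in WT and 37 in mutant and a maximum of 468 and 662. Up to 48 members in WT and 59 in mutant were detected in 1 cell. Negative erythroblast-like cells had medians of 2 and 1. The range within positive cells was wide, since 4 of 207 WT and 20 of 435 mutant positive cells had no histone UMI.

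Most of the signal lay in cluster 6, whose 125 WT and 293 mutant cells were all positive. It was at 8377 CPM in WT and 14510 CPM in mutant. Cluster 9 was at 477.5 and 693.2 CPM, cluster 34 at 743.5 and 1099 CPM and cluster 32, with 4 haemoglobin genes among its 10 leading genes, at 40.5 and 128.3 CPM. Within cluster 6, 115 WT and 271 mutant cells had at least 20 UMIs of Top2a and Mki67. Their median histone level was 10020 CPM in WT and 14880 CPM in mutant, yet 16 WT and 29 mutant cells lay under 2000 CPM. At or above 5000 CPM there were 89 and 210 cells.

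**Figure D4:**
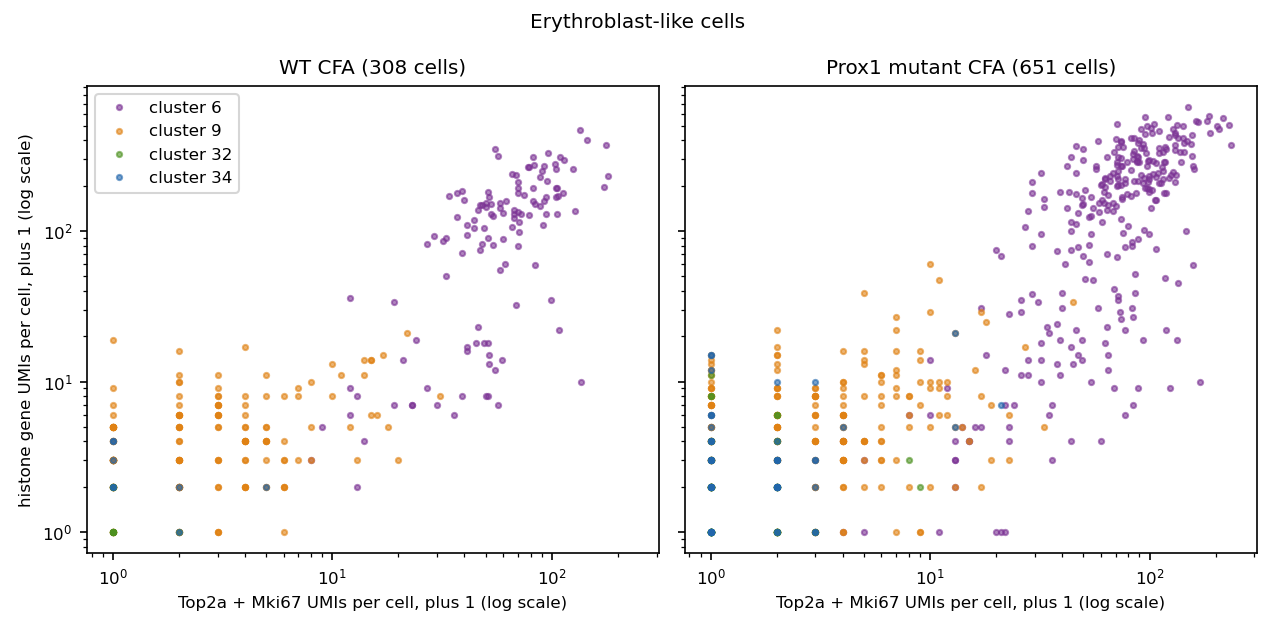
Histone UMIs against Top2a plus Mki67 UMIs in each erythroblast-like cell, both plus 1 on log axes, for 308 WT CFA and 651 Prox1 mutant CFA cells coloured by cluster. Cluster 6 forms a cloud at high values of both with a tail of cells of high Top2a and Mki67 and few histone UMIs, and the other clusters lie at the lower left.

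As a description with no test, since the cells were split by the members' own level, the cluster 6 cells at or above 5000 CPM were set beside those under 2000 CPM. H2afx, the H2A variant that marks DNA breaks, was at 664 against 126 CPM in WT and 580 against 107 CPM in mutant, log2 ratios of 2.40 and 2.44. Aurkb, a mitotic kinase, had ratios of 1.54 and 1.67, Asf1b, a chaperone of H3 and H4, 1.09 and 1.48, and Top2a 1.62 and 1.11. The cyclin Ccnb1 had ratios of -0.52 and -0.75, the DNA methylation helper Hells -1.14 and -0.90, and the replicative helicase subunit Mcm4 -0.9999 and -0.40. Slbp, whose protein binds the stem-loop, was at -0.11 and 0.41, beside medians over all genes of -0.19 and -0.10. These genes were chosen for display after their values were seen.

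Positive erythroblast-like cells were also divided at the median of the share of S phase UMIs among S phase and G2/M UMIs. That median was 0.164, so an S-leaning cell could still hold mostly G2/M UMIs, and the names are relative. The S-leaning cells numbered 87 in WT and 231 in mutant and the G2/M-leaning cells 116 and 203. Summed histone levels were 7579 against 5037 CPM in WT (log2 0.59) and 14160 against 6898 CPM in mutant (log2 1.04). Of the members, 7 of 52 in WT were at least 2-fold higher in S-leaning cells, where 55.3% of all genes were, and 22 of 60 in mutant, where 50.3% were. Haemoglobin was at 225000 against 542800 CPM in WT and 272100 against 490800 CPM in mutant. With it left out of the total, the summed log2 ratio turned to -0.17 in WT and was 0.52 in mutant, and the members' medians were -0.44 and 0.39 against 0.43 and 0.50 over all genes. A difference between S-leaning and G2/M-leaning cells thus rested on the total used in WT.

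Of the 5 H1 genes tested, 2 in each library were at least 2-fold higher in S-leaning cells, beside 55.3% of all genes in WT and 50.3% in mutant. These were Hist1h1a with log2 ratios of 1.89 in WT and 2.57 in mutant and Hist1h1b with 1.45 and 1.73. Hist1h1e had ratios of 0.63 and 0.91, Hist1h1d of 0.15 and 0.82 and Hist1h1c of 0.14 and 0.33. Hist1h2ap was at 0.74 and 1.28. The other side held Hist1h2bc at -0.81 and -0.30, Hist3h2a at -1.33 and -0.23, and Hist3h2ba at -0.90 and -0.49. These are ratios with haemoglobin in the total. With it left out, 1 member in WT and 6 members in mutant were at least 2-fold higher, beside 31.6% and 32.2% of all genes.

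Other genes of the cell cycle and of histone supply were read from lists. Of 30 S phase genes, which build the replication fork and its nucleotides, 29 in WT and 26 in mutant were at least 2-fold higher in erythroblast-like than in other cells, with medians of 2.59 and 1.91. Of 30 G2/M genes, which drive mitosis, all 30 were in each library, with medians of 3.51 and 2.76. Over all genes 8.36% in WT and 8.32% in mutant were at least 2-fold higher. The 4 S phase genes with most UMIs had WT and mutant log2 ratios of 1.52 and 1.55 for Pcna, the sliding clamp, 1.62 and 0.73 for Dut, 4.02 and 3.15 for Rrm2, and 2.51 and 2.03 for Rrm1, the last 3 of them enzymes of nucleotide supply. The 4 G2/M genes with most UMIs were Ube2c (4.39 and 3.41), Nusap1 (4.38 and 3.45), Cenpf (4.45 and 3.60) and Birc5 (4.19 and 3.18). The members' medians of 4.57 and 3.80 lay above those of both lists.

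With haemoglobin in the total, genes for processing histone mRNA did not follow the members as a list. Of 14 such genes 2 were at least 2-fold higher and 4 lower in erythroblast-like cells of each library, where 8.36% and 8.32% of all genes were higher and 60.1% and 65.6% lower. Slbp had log2 ratios of 1.86 in WT and 1.97 in mutant, Casp8ap2 of 0.76 and 0.75, Srrt, a partner of the cap-binding complex, of 0.54 and 0.55, and Cpsf2, a subunit of the cleavage complex, of 0.20 and -0.43. Of 11 histone chaperones 3 were higher in each library, and the 4 with most UMIs lay below 2-fold. These were Nasp, an H3 and H4 chaperone (0.12 and -0.07), Supt16 (0.88 and 0.83) and Ssrp1 (0.44 and 0.32), the subunits of FACT, and Hjurp, the Cenpa chaperone (0.35 and 0.56). Of 11 genes listed as replication-independent histones, among them H2afx and Cenpa, which is also in the G2/M list, 3 were higher and 4 lower. H3f3a had ratios of 1.57 and 1.84, H3f3b of -0.45 and -0.67, H2afz of 0.84 and 0.63 and H2afy, macroH2A, of -2.71 and -3.76. All these ratios of erythroblast-like over other cells, and the counts from them, keep haemoglobin in the total. With it out, the summed histone log2 ratio rose from 3.73 to 4.59 in WT and from 3.47 to 4.25 in mutant. The change of total shifts the ratio of every gene alike. Genes well under 2-fold here, such as Supt16, Ssrp1 and Srrt in WT, can therefore pass it on that total. The lists were not counted again. In positive over negative erythroblast-like cells Slbp had log2 ratios of 7.34 and 6.06 and H2afz of 5.20 and 5.25, and H3f3a had 1.75 and 1.39.

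Across 42 profiles, 21 types in 2 libraries, the genes outside the members whose log2(CPM + 5) had the highest Pearson correlation with the summed members were Ncapg, a condensin subunit (r = 0.943), Sgo1, a guardian of sister chromatid cohesion (0.940), E2f8, a repressor of cell-cycle genes (0.936), Aurkb (0.933) and Sgo2a (0.928). These correlations are descriptions over 13461 genes, and the profiles share libraries, depth and the erythroblast-like maximum. Mki67 had r = 0.889 and rank 55 and Top2a 0.874 and rank 74. Among the members with at least 200 UMIs, Hist1h2ab was nearest to the sum (0.967) and Hist3h2a (0.332), Hist4h4 (0.318) and Hist1h2bc (0.145) were farthest.

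Members were also read in the negative cells of all types together. Their median depths were 5710 UMIs in WT and 4371 UMIs in mutant, so a dividing cell could lack UMIs of both genes. Being outside division was therefore not shown for them. The negative cells had 168.5 CPM of histone UMIs in 3571 WT cells and 180.7 CPM in 3497 mutant cells. Hist1h2bc was at 60.6 CPM in WT and 40.3 CPM in mutant negative cells and Hist1h1c at 34.6 and 32.2 CPM. Hist3h2a followed at 10.6 and 9.57, Hist1h1e at 9.92 and 9.43 and Hist1h4d at 8.93 and 11.8 CPM. Of 39 members tested, 14 were at least 2-fold higher in the mutant library, against 6.07% of all genes, and 1 lower, against 5.19%. Hist1h2ap was at 1.02 CPM in WT and 8.80 CPM in mutant negative cells and Hist1h1b at 2.48 and 7.11 CPM. Haemoglobin in these cells, which include 63 WT and 131 mutant erythroblast-like cells, was at 13130 and 53170 CPM. Its part in the difference was not tested.

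Shares of cells with a UMI separated Hist1h1b from Hist1h2bc. With each cell thinned to 2000 UMIs, Hist1h1b had a UMI in 35.2% of 298 WT and 42.3% of 615 mutant erythroblast-like cells, and unthinned in 47.4% and 53.3%. In smooth muscle-like cells no thinned cell had a UMI, of 152 WT and 88 mutant cells, with exact binomial upper limits of 2.40% and 4.11% on the share of cells with a UMI, and unthinned 0.658% and 3.41% had one. Haemoglobin Hba-a1, which smooth muscle does not make, had a UMI in 13.2% and 28.4% of those same cells. Hist1h2bc had a UMI in 14.1% and 18.9% of erythroblast-like and 12.5% and 14.8% of smooth muscle-like cells. Median depths before thinning were 9160.5 and 9338 UMIs in erythroblast-like and 9975.5 and 14027 UMIs in smooth muscle-like cells.

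Among macrophages, which were clustered again on their own, the members were low in the inflammatory, monocyte and resident-type subsets. The inflammatory subset was at 151.8 CPM in WT and 159.5 CPM in mutant, the monocyte subset at 97.6 and 128.6, and the resident-type subset at 174.3 and 143.3. Subcluster 3, with haemoglobin genes among its leading genes and therefore given by number, was at 148.7 CPM in WT and 916.3 CPM in mutant. Subcluster 2, with the neutrophil gene Ngp and the B lineage gene Ebf1 among its leading genes and also given by number, was at 83.3 and 205 CPM. The dendritic subset was at 832 and 597 CPM. Before this second clustering the inflammatory macrophage-like clusters 5 and 17 together were at 150.7 CPM in WT and 253.8 CPM in mutant. In cluster 17 of the mutant library 54 cells with UMIs of at least 3 erythroid markers were at 1990 CPM and the other 149 cells at 475 CPM.

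The comparison of mutant with WT macrophages used clusters 3 and 5. Their summed histone level was 141.1 CPM in 493 WT cells and 123.9 CPM in 471 mutant cells, a log2 ratio of -0.19 (-0.29 to -0.09). Of 19 members tested, 4 were at least 2-fold higher in the mutant library, against 6.92% of all genes, and 1 lower, against 2.85%, and their median of 0.20 equalled that of all genes. Haemoglobin was at 785.7 CPM in these WT and 6065 CPM in these mutant cells. Hist1h2bc was at 55.0 CPM in WT and 29.6 CPM in mutant macrophages (log2 -0.90) and Hist1h1c at 34.6 and 24.4 CPM (-0.50). Hist3h2a had a ratio of 0.02, and Hist1h2ap was at 2.65 and 7.02 CPM (1.41). Of 29 G2/M genes tested there, 18 were at least 2-fold higher, with a median of 1.51.

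In positive cells the summed members were higher in the mutant library in all 4 dividing types, though not in each cluster of them. In erythroblast-like cells the sum went from 6376 to 11270 CPM, a log2 ratio of 0.82 (0.80 to 0.85), in granulocyte-monocyte progenitor-like cells 0.51 (0.45 to 0.58), in immature neutrophil-like cells 0.51 (0.44 to 0.57) and in early B lineage-like cells 0.24 (0.13 to 0.34). Haemoglobin went from 370400 to 359000 CPM in these erythroblast-like cells, from 216.4 to 17470 in progenitor, from 1314 to 25000 in immature neutrophil and from 229.1 to 626.9 in early B lineage-like cells. With haemoglobin out of the total the summed log2 ratios were 0.80, 0.54, 0.54 and 0.24. The intervals leave out the differences between animals and between library preparations, which cannot be told apart from genotype here. The intervals also leave out differences between cells. In early B lineage-like cells, positive and negative, 7 WT and 4 mutant cells held 52.5% and 65.8% of the histone UMIs. The ratios and member counts there, and to a lesser degree in the other types, thus rest on few cells. In positive erythroblast-like cells 24 of 61 members were at least 2-fold higher, against 3.69% of all genes, and 0 were lower, against 14.4%. The members' median was 0.85 beside -0.11 over all genes. In granulocyte-monocyte progenitor-like cells 8 of 39 were higher, against 7.09%, and 0 lower, against 2.84%. In immature neutrophil-like cells 11 of 40 were higher, against 8.40%, and 0 lower, against 3.48%. In early B lineage-like cells 10 of 26 were higher, against 8.29%, and 0 lower, against 5.34%. The medians in the last 3 types were 0.48, 0.66 and 0.43 beside 0.11, 0.13 and 0.02 over all genes.

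The cell-cycle lists had lower medians than the members in this comparison. The medians of the S phase list were 0.05 in erythroblast-like, -0.44 in progenitor, -0.29 in immature neutrophil and -0.46 in early B lineage-like positive cells, and those of the G2/M list were -0.06, 0.23, -0.44 and 0.04. The replication-independent histones had medians of -0.27, -0.24, -0.45 and -0.20. Top2a had log2 ratios of 0.57, 0.65, 0.28 and 0.27 in the same order and Mki67 of 0.47, 0.50, 0.05 and 0.19. Negative erythroblast-like cells went from 279 to 389 CPM of histone UMIs, a log2 ratio of 0.48 (0.19 to 0.77).

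The difference was unequal among members. By class, 9 of 13 H4 and 8 of 16 H2A members were at least 2-fold higher in mutant positive erythroblast-like cells, 5 of 16 H2B, 2 of 11 H3 and 0 of 5 H1, with medians of 1.41, 1.13, 0.66, 0.51 and 0.45. Over all genes 3.69% were at least 2-fold higher there. By transcript model, members ending at the stem-loop had a median of 1.35, those running on 0.47 and those with no stem-loop found, whose mRNAs may still have one, 0.80. The order was the same in granulocyte-monocyte progenitor-like cells (0.88, 0.27 and 0.35), in immature neutrophil-like cells (0.93, 0.35 and 0.65) and in early B lineage-like cells (1.19, -0.15 and 0.47). Members with at least 50% of their 50-base stretches shared with another gene had medians of 1.19, 0.82, 1.04 and 1.21 in these 4 types, and the others 0.56, 0.33, 0.34 and -0.05. Transcript end and shared sequence overlap among the members, and which of them goes with the difference was not tested.

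**Figure D5:**
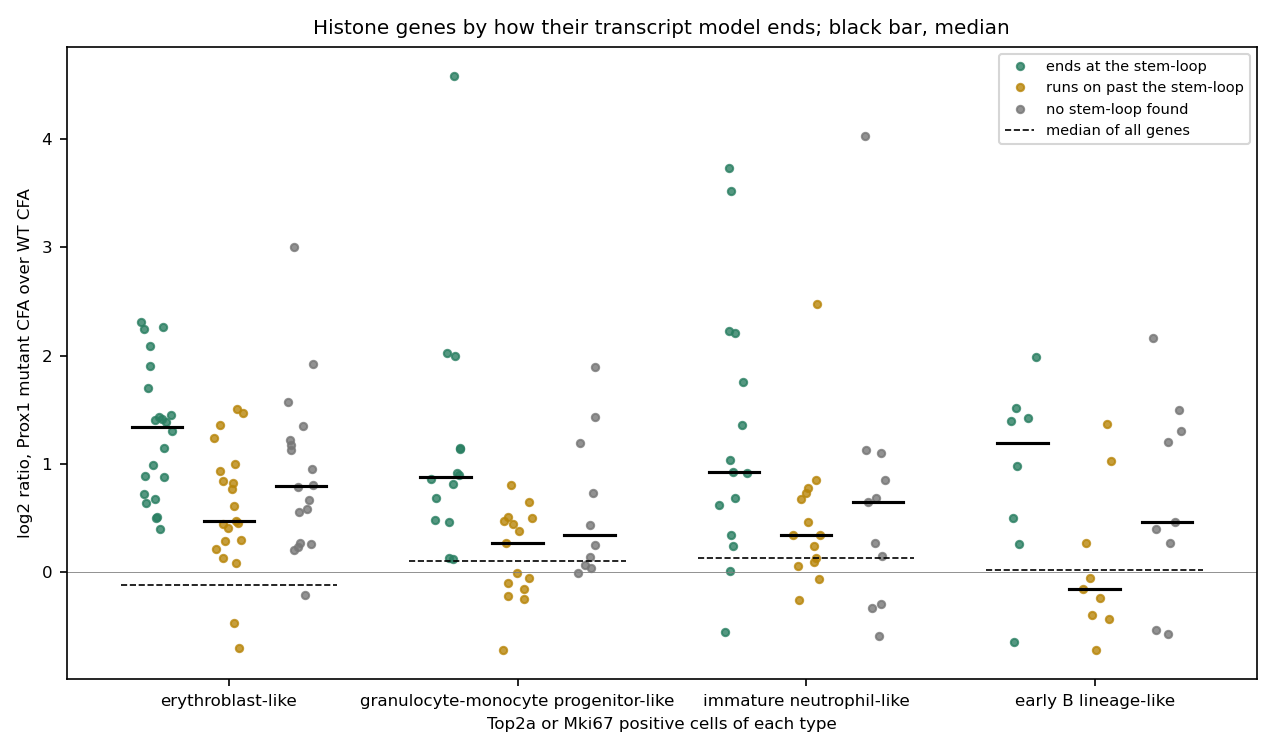
Log2 ratio of the Prox1 mutant CFA over the WT CFA library for each member (points) in Top2a or Mki67 positive cells of 4 types, grouped by how the transcript model ends, with black bars at the group medians and dashed lines at the median of all genes. The group that ends at the stem-loop has the highest median in each type, 1.35 in erythroblast-like cells.

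Hist1h2ap had the largest difference in CPM of any member in each of the 4 types. Its level in positive cells was 411 CPM in WT and 1952 CPM in mutant erythroblast-like cells, a log2 ratio of 2.25 (2.15 to 2.34). In granulocyte-monocyte progenitor-like cells it was at 159 and 650 CPM (2.03), in immature neutrophil-like cells at 208 and 701 CPM (1.76) and in early B lineage-like cells at 412 and 1110 CPM (1.43). Hist1h2ap shared 93.1% of its 50-base stretches with another gene, and beyond its first 79 bases it had no 50-base stretch that Hist1h2ao lacks, so reads from its 3′ part also match Hist1h2ao (chromosome 13, 21810465 to 21810944, plus strand). How the counting treated reads that match both is not given in the sources used here.

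Hist1h1b, which had the most UMIs, differed less and not in one direction. It was at 1278 and 1880 CPM in WT and mutant positive erythroblast-like cells (log2 0.56), at 649 and 681 CPM in granulocyte-monocyte progenitor-like cells (0.07), at 514 and 411 CPM in immature neutrophil-like cells (-0.32) and at 1653 and 1118 CPM in early B lineage-like cells (-0.56). Hist1h1e had ratios of 0.30, -0.21, -0.06 and -0.72 in this order, Hist1h1c of 0.45, 0.45, 0.35 and -0.05, Hist1h2ae of 0.41, -0.05, 0.24 and -0.43, and Hist1h3c of 0.40, 0.46, 0.02 and -0.64. Hist1h4d was higher throughout, at 0.83, 0.38, 0.68 and 1.37.

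Among the other members of high ratio in erythroblast-like cells, Hist1h2br went from 19 to 296 UMIs (log2 3.00), Hist1h4m from 40 to 374 (2.26), Hist1h4n from 40 to 331 (2.09) and Hist2h2aa1 from 86 to 829 (2.31). Hist2h2aa1 had ratios of 1.999, 2.23 and 1.40 in the other 3 types, the last on fewer than 20 UMIs. Hist1h2br shared 100% of its 50-base stretches with another gene, Hist1h4m 89.8%, Hist1h4n 85.6% and Hist2h2aa1 89.2%. Without these 4 and Hist1h2ap, chosen after their values were seen, the summed log2 ratio was 0.60 in erythroblast-like, 0.23 in progenitor, 0.18 in immature neutrophil and 0.01 in early B lineage-like cells. The lowest ratios in erythroblast-like cells were those of Hist3h2a (-0.70), Hist3h2ba (-0.47) and Hist2h2bb (-0.21).

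Clusters within a type differed. Cluster 6 alone had a summed log2 ratio of 0.79 in positive cells. The positive immature neutrophil-like cells came from cluster 19, with 47 WT and 49 mutant cells and a ratio of 1.08, and from cluster 13, with 14 WT and 79 mutant cells and a ratio of -0.24 (-0.35 to -0.13), from 1479 to 1252 CPM. In cluster 13 the median depth of these cells was 49476 UMIs in WT and 4318 UMIs in mutant, and haemoglobin was at 194.3 and 31090 CPM. There 1 of 21 members tested was at least 2-fold higher. With haemoglobin out of the total 1 member was higher, beside 9.91% of all genes. The ratio of 0.51 for immature neutrophil-like cells was thus a mixture of opposite directions. Over all kept cells of a type, positive and negative, 9 of 21 types had an interval above 0 for mutant over WT, 5 below 0 and 7 across it.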

How the data were processed

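Single-cell 3′ libraries of the TMJ were made by the authors with the 10x Genomics chemistry, and the deposited matrices hold UMI counts per gene and barcode, made by the authors with Cell Ranger 7.0.1 on mm10. Whether intronic or multi-mapped reads were counted is not given in the sources used here. Barcodes were kept from 500 detected genes upward where mitochondrial UMIs stayed below 10%. Counts were integrated with Seurat 5.3.0 and sctransform 0.4.2 (R 4.3.3) on 3000 features and clustered on 200 principal components at resolution 1.5. The members, Top2a, Mki67 and the listed S phase and G2/M genes were left out of the features. Macrophages were clustered again on 30 components at resolution 0.5.

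A cluster could take a type's name when at least 3 of its markers were raised at least 2-fold in at least 10% of its cells. Clusters far shallower than their library stayed unnamed when no marker of that lineage was among their 10 leading genes. These were clusters 11 and 21, raised in endothelial markers, and 29, raised in neutrophil markers. Cluster 11, at 143.0 CPM of histone UMIs in WT and 822.5 in mutant, is thus not in the endothelial levels. Clusters with 90% of their cells from 1 library stayed unnamed unless at least 3 of the type's markers were among their 10 leading genes, as in the adipocyte-like cluster. Those whose leading genes went against the name stayed unnamed or are given by number. This part of the naming rule and the choice of macrophage clusters 3 and 5 were set after the clusters were seen. A doublet caller marked 2 and 1 cells, which is too few to be of use, so the 152 and 265 cells with the highest scores were removed only as an alternative. UMI counts were summed per type and library in Python 3.11.15 (numpy 2.4.6, scipy 1.17.1, pandas 2.3.3, scanpy 1.11.5) and given as CPM with exact Poisson intervals, and ratios with exact conditional binomial intervals. With 1 library per group there was no test. The ratio step was tested on simulated data. Members with at least 200 UMIs are described, at most the 24 with most UMIs, together with the 5 highest and 5 lowest ratios of positive over negative erythroblast-like cells, the 4 genes of each list with most UMIs, the 5 nearest genes by correlation, and Top2a and Mki67. The members and gene lists were chosen with earlier results of these data known.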

Additional observations from a re-analysis of the deposited data

Results flagged for a closer look

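Histone UMIs also appeared outside the named types. Clusters left unnamed, with 383 WT and 1824 mutant cells, were at 309.8 CPM in WT and 733.1 CPM in mutant, and barcodes that did not pass the cell filter, 1357 in WT and 2089 in mutant, were at 105.6 CPM and 100.5 CPM. These values were picked out because they are a signal in data that the comparisons do not use, and their source was not tested.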

How the results depend on the processing

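Of 106 values under alternatives, 54 stayed within the 95% interval of the value reported, or within 1.5 times for the number of members detected. Another 49 moved beyond that interval, some by little, such as from 8571 to 8748 CPM, and 3 were labelled reversed. Those of Hist1h2ap and Hist1h1b among the 3 are lower bounds with no UMI in the WT cells, given below, and show no reversal. The summed histone level in erythroblast-like cells (4925 CPM in WT, 8571 CPM in mutant) was 6793 and 11770 CPM with a cell filter of 1000 genes and 5% mitochondrial UMIs, 3609 and 6609 with one of 200 genes and 20%, 4482 and 7619 with histone and cell-cycle genes among the clustering features, 4671 and 8160 at resolution 0.5, 4334 and 6849 with types from marker UMIs per cell, 3926 and 6562 with cells thinned to 2000 UMIs, 3891 and 6289 as a mean over cells, and 8748 in mutant without the highest doublet scores. Its log2 ratio of mutant over WT (0.80) was 0.87 with the looser filter, 0.77 with cell-cycle genes kept, 0.66 with marker UMIs, 0.74 thinned and 0.69 as a mean over cells. The log2 ratio of erythroblast-like over other cells (3.67) was 4.05 and 3.74 with the stricter and looser filters, 3.95 with cell-cycle genes kept, 3.71 with 30 components, 3.97 at resolution 0.5, 3.89 with marker UMIs, 3.74 without doublets, 3.73 thinned and 3.69 as a mean over cells. The members' median ratio in positive over negative cells (4.35, a bound set by the floor of 3 UMIs) was 2.98 and 6.00 with the filters and 4.05 thinned.

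With libraries merged without integration, only 19 WT and 140 mutant cells kept the erythroblast name, since clusters of 1 library stay unnamed. The values were then 123.4 and 338.1 CPM, 1.45 for mutant over WT, -1.99 for erythroblast-like over other cells and 1.90 for positive over negative. In positive cells Hist1h2ap and Hist1h1b then had no UMI in WT. Against a floor of 3 UMIs their log2 ratios of mutant over WT were at least -5.44 and at least -4.85, and these bounds give no direction. Alternatives chosen after seeing the data gave 4636 and 8186 CPM and 3.97 when such clusters were named too, 8377 and 14510 CPM and 4.43 for cluster 6 alone, which had no negative cells and so no ratio of positive over negative, and 8950 and 15340 CPM, 4.48 and 3.26 without haemoglobin in the total. At least 10 UMIs were found for 62 members, at least 1 for 65, at least 100 for 59, and 60 had 10 when thinned. No paired analysis was possible because each group has 1 library and no result comes from a test. Leaving out a replicate was not possible for the same reason. Depth limits single members, since many had under 20 UMIs in a type.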
